A study of Homo sapiens with 10 samples.

Results

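The clustered protocadherin genes were taken as the protein-coding genes of human chromosome 5 whose symbols begin with PCDHA, PCDHB or PCDHG in GENCODE release 44 (GRCh38). There were 53 of them among 20033 protein-coding genes, with 15 in the alpha, 16 in the beta and 22 in the gamma cluster, all read from the plus strand. The data were 1 list of 12921589 nucleosome positions, each 140 bp long with a score, from human induced pluripotent stem cells (hiPSCs). They came from the line PB010.5, in which EEF2 holds a fluorescent reporter cassette for the cell cycle. Permeabilised native cells were digested with micrococcal nuclease (MNase), an enzyme that cuts the DNA between nucleosomes. There were 5 concentrations, from 0.5 U over 1, 3 and 6 U up to 10 U. The study's optimised protocol for native hiPSCs digests for 5 min, but the paper names no time for the sequenced libraries. One library per concentration was made and read in paired ends of 150 bp and again of 50 bp, which gives the 10 samples. Fragments of yeast mononucleosomes had been added as a spike-in. The list pools the digestions of 1 cell line, so it has no replicates, no value per concentration and no control group, and every value below is a description without a test.

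Protocadherins of these clusters are cell adhesion proteins of neurons that give each cell a surface identity. In the alpha and gamma clusters each variable exon has a promoter of its own, codes for the extracellular, transmembrane and first cytoplasmic part, and is spliced to constant exons that the cluster shares, whereas each beta gene is a single coding exon. Most promoters are chosen stochastically, one or a few per neuron, and share a short element with the core CGCT. The insulator protein CTCF is known to bind at that element and, in the alpha cluster, at a further site inside the variable exon. The C-type genes PCDHAC1, PCDHAC2, PCDHGC3, PCDHGC4 and PCDHGC5 are the most diverged in sequence and are expressed more broadly in neurons.

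The alpha cluster (chr5:140786136-141012347) held 1038 positions, or 4.59 per kb, with a mean score of 14.9. The beta cluster (chr5:141051374-141249365) held 850 positions, 4.29 per kb, with a mean score of 14.3. The gamma cluster (chr5:141330514-141512977) held 893 positions, 4.89 per kb, with a mean score of 16.3. Chromosome 5 as a whole had 4.46 positions per kb and a mean score of 15.1, so each entire cluster lay close to its chromosome. The median distance between neighbouring midpoints was 190 bp in the alpha and beta clusters and 180 bp in the gamma cluster, against 180 bp on chromosome 5. The differences described next appeared at the scale of single exons and promoters.

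The promoter element is shown first because most members share it at nearly the same distance from the start. The letters TGNCGCT or CGNCGCT were sought on the sense strand from 110 bp before to 10 bp after the annotated start, and the match nearest to its usual place was kept. A match was present in 44 of the 53 genes, 12 alpha, 14 beta and 18 gamma, whereas 9.82% of the other autosomal protein-coding starts held one in the same window. It lay between 95 bp before and 3 bp after the start, with a median of 56 bp before. The 9 genes without one in this window were PCDHA9, PCDHAC1, PCDHAC2, PCDHB1, PCDHB6, PCDHGB7, PCDHGA12, PCDHGC4 and PCDHGC5, among them 4 of the 5 C-type genes. CGCT alone was present in this window in 49 of the 53 genes. Some of these 9 thus hold the core without the letters sought before it. No share of other starts was set beside that count. An element outside the window would be missed. The annotated start of PCDHAC1, for one, lies 594 bp before its start codon, against a median of 171 bp over the members. Members chosen to show each cluster's form of the element follow, in GRCh38 on the plus strand with the CGCT core in capitals.
PCDHA4 (chr5:140806979-140807008): tggagccacatgatgtCGCTctttaccaca
PCDHA10 (chr5:140855841-140855870): taaagccaccggatgtCGCTgtcgtccaca
PCDHA12 (chr5:140875244-140875273): atcagtcacatgatgtCGCTctacactcag
PCDHB4 (chr5:141121723-141121752): tcaagacgcagggtggCGCTgcaggctaag
PCDHB9 (chr5:141187074-141187103): ggaagccacaaggtggCGCTgcagactgaa
PCDHB10 (chr5:141192299-141192328): ggaggccacacggtggCGCTgcaggctaaa
PCDHB11 (chr5:141199530-141199559): tggagacacttggtggCGCTgcaggataac
PCDHGA3 (chr5:141343767-141343796): ttaggcctcttagtgtCGCTgttgaccact
PCDHGB4 (chr5:141387617-141387646): tgctgactctgggcgcCGCTgttggccaaa
PCDHGB6 (chr5:141407924-141407953): cggagcctctgggcgcCGCTgtcggccagt
PCDHGA10 (chr5:141412931-141412960): ttaggactctgagcgcCGCTgttcacctac
PCDHGC3 (chr5:141475880-141475909): ctgggactctgtgtgcCGCTgtcggccaat

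The form TGNCGCT was present in all 12 alpha and all 14 beta genes with a match, and in 5 of 18 gamma genes, where the other 13 had CGNCGCT. PCDHGC3 was the one C-type gene with a match. In PCDHB9, a promoter copy of the CTCF consensus overlapped this element.

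When midpoints were aligned on the element, the 44 genes showed a regular array on its upstream side. Midpoint density was counted in 10-bp bins, averaged over 5 of them and set relative to the region 600 to 1500 bp away. It was highest at 165, 345 and 515 bp upstream. The relative density there was 2.31, 2.52 and 2.10. Between these peaks the density fell to 0 at 285 and at 425 bp upstream, where no member had a midpoint in the averaged bins. The centre had a low of 0.315 at 5 bp upstream of the core. Downstream peaks lay at 145 bp, with a relative density of 2.10, and at 335 bp, with 1.57. Midpoints in the list were never closer than 100 bp to each other. The element, its window and the distances named here were chosen after the positions had been seen, so the height of these peaks describes the members and was not tested.

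The 3 clusters shared the upstream spacing. The peak nearest to the element lay 175 bp upstream in alpha, 165 bp in beta and 155 bp in gamma, and the next at 345, 335 and 365 bp. The peak after that was at 515, 525 and 515 bp. Downstream, alpha peaked at 135 bp and beta at 155 bp, while gamma had no single peak there, with a relative density of 1.96 at 55 and at 75 bp and of 1.71 at 145 and at 175 bp. The 1872 other protein-coding starts that hold the same letters had a relative density of 1.13 at 165 bp upstream and lows of 0.829 and 0.954 in place of the zeros. Downstream of the element those other starts did show a peak, of 1.44 at 165 bp.

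**Figure D1:**
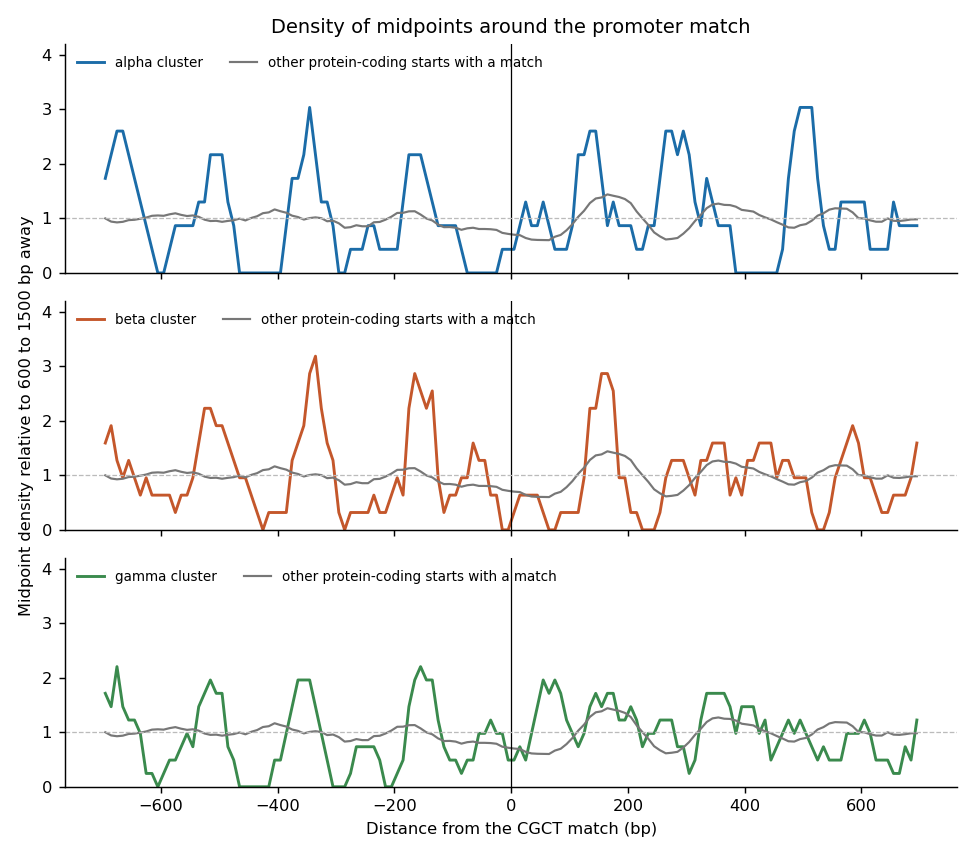
Midpoint density (y axis, relative to the density 600 to 1500 bp away) against distance from the CGCT match (x axis, bp, upstream negative), with each cluster in colour and 1872 other protein-coding starts that hold the match in grey. All 3 clusters rise near 165, 345 and 515 bp upstream and drop to 0 between these peaks, where the grey curve stays near 1.

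Counted gene by gene, a midpoint lay 130 to 190 bp upstream of the element in 23 of the 44 members, against 33.3% of the other starts with a match. The count was 5 of 12 alpha, 9 of 14 beta and 9 of 18 gamma genes. The density in this band was 2.01 times that of the flanks, with a 95% counting interval (exact, for midpoint counts only) of 1.26 to 3.07. Because the band was set after the peak had been seen, and midpoints of related promoters are counted as independent, this interval is not a test. With the same genes aligned on their annotated starts, shifted by the median distance of the element, the density in the band was 1.91 times the flanks. The element and the start thus cannot be told apart as the reference point. Downstream, a midpoint lay 120 to 180 bp away in 22 of 44 members, against 41.7% of the other starts, so this side was closer to the background. A midpoint within 70 bp of the element was found in 20 of 44 members, against 49.0%, which is near the background. By cluster it was found in 3 of 12 alpha, 6 of 14 beta and 11 of 18 gamma genes. The interval from the last upstream to the nearest downstream midpoint had a median of 365 bp in alpha, 305 bp in beta and 205 bp in gamma, and of 240 bp at the other starts.

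The arrangement was repeated most closely in some of the beta genes. In PCDHB4 the nearest midpoints lay 157 bp upstream and 153 bp downstream of the element. In PCDHB9 they lay at 158 and 152 bp, in PCDHB10 at 153 and 147 bp, and in PCDHB11 at 144 and 146 bp. These 4 genes thus have an interval of about the same width centred on the element. PCDHB2 had a wider one, with midpoints 188 bp upstream and 172 bp downstream. The other beta genes departed from it. PCDHB3, PCDHB7, PCDHB12 and PCDHB15 had a midpoint 87, 50, 67 and 48 bp upstream. PCDHB5 and PCDHB16 had one 37 and 26 bp downstream, and PCDHB14 had none upstream until 337 bp. PCDHB8 and PCDHB13, the 2 beta genes with the highest identity to each other, had no midpoint downstream until 909 and 991 bp. Of the 50-base words within 1500 bp of either start, 71.5% occurred once in the genome, the lowest share of all members. The part of this in these 2 wide intervals was not tested. Among alpha genes, PCDHA4 had midpoints 153 bp upstream and 137 bp downstream, PCDHA10 at 165 and 195 bp, and PCDHA12 at 168 and 182 bp. PCDHA3 had none upstream until 1178 bp, and in the gamma cluster PCDHGA1 had none until 1022 bp. PCDHGB4 and PCDHGB6 resembled PCDHB4, with midpoints 151 and 169 bp away in PCDHGB4 and 168 and 152 bp away in PCDHGB6.

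**Figure D2:**
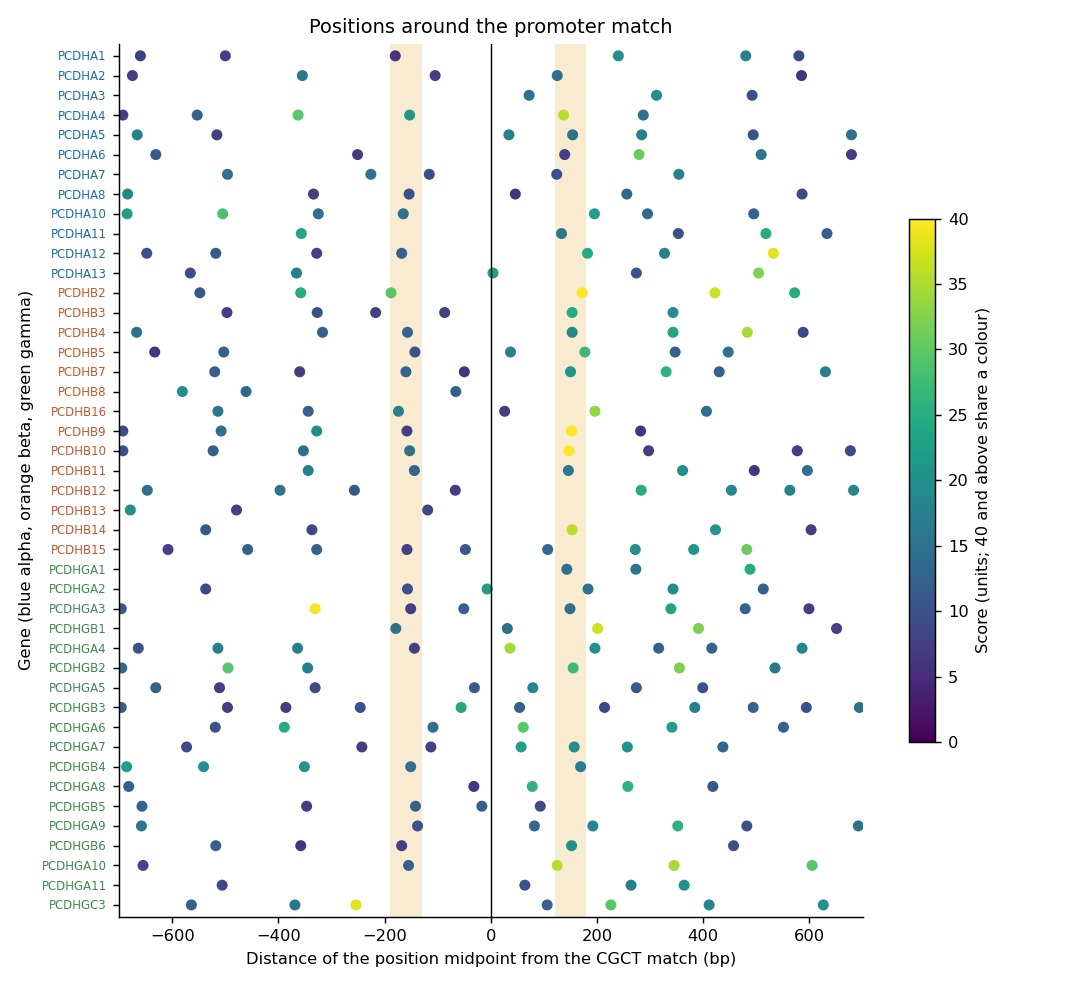
Midpoints of positions within 700 bp of the CGCT match (x axis, bp) in each of the 44 genes that have it (y axis), coloured by score. The shaded bands are 130 to 190 bp upstream, which holds a midpoint in 23 genes, and 120 to 180 bp downstream, which holds one in 22.

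By raw score, the nucleosome on the gene side of the element scored higher than the one before it in 33 of the 44 genes. This held at 52.4% of the other starts with a match. Over the 130 to 190 bp and 120 to 180 bp bands, the mean score was 12.3 upstream and 24.1 downstream, against 13.8 in the flanks. In the beta cluster these means were 13.7 and 31.4, in gamma 10.7 and 21.3, and in alpha 12.8 and 16.5. The highest downstream scores belonged to beta genes, with 54.3 in PCDHB2, 44.4 in PCDHB10 and 40.7 in PCDHB9. Each of these was above the 99th percentile of autosomal positions of the same GC content. At the other starts with a match the band means were 22.9 and 27.3, against 18.0 in their flanks. In raw score the members thus lay below them in both bands and in the flanks. Relative to flanks pooled from both sides, the members were lower upstream where the other starts were higher, and both were higher downstream. On the upstream side alone, all members had a mean score of 12.2 at 1500 to 1000 bp before the start. It was 12.9 at 1000 to 500 bp before it. The upstream band mean of 12.3 was thus close to the flank on its own side. After the start the mean was 16.5 at 500 to 1000 bp and 15.2 at 1000 to 1500 bp. GC content rose across the start as well, from 37.1% in the 500 bp before to 54.6% in the 500 bp after, and its part in the scores was not tested. When positions were ranked among those of the same GC content, fewer than the 33 genes kept the order. It reversed in PCDHA10, PCDHB11, PCDHB15, PCDHGA3, PCDHGB2, PCDHGB4, PCDHGA9 and PCDHGA11. No gene outside the 33 ranked higher downstream. A share of other starts by this ranking is not given, so the excess over 52.4% applies to raw scores only. In PCDHGB4 the downstream position was at the 54.8th percentile and the upstream one at the 85.2nd. In PCDHB10 they were at the 99.8th and the 94.8th.

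Relative to the annotated start rather than the element, 13 midpoints lay in the 100 bp upstream over all 53 genes, which is 2.45 per kb and gene. In the 200 bp downstream there were 5.19 per kb and gene. No midpoint lay in those 100 bp in 40 of 53 genes, against 58.6% of other protein-coding starts. The clusters were unlike each other, with 13 of 15 alpha, 14 of 16 beta and 13 of 22 gamma genes empty there. Over 200 bp the contrast was smaller, with 19 of 53 genes empty (7 alpha, 5 beta and 7 gamma) against 25.6%. On the log2 scale, density over the 200 bp upstream relative to 1000 to 1500 bp away was -0.77 in alpha, -0.28 in beta and -0.03 in gamma. The alpha value rests on 8 midpoints, with a 95% counting interval of -2.03 to 0.29. Over all members the log2 value was -0.28, with a 95% counting interval of -0.81 to 0.21, so no depletion over 200 bp was detectable with this number of midpoints. Other protein-coding starts had -0.20, or 0.04 when weighted to the GC content of the members. A position covered the start itself in 28 of 53 genes, 9 alpha, 5 beta and 14 gamma, against 50.7% of other starts. The members as a whole were thus at the background for coverage of the start, and beta was below it.

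The mean score rose from 12.2 at 1500 to 1000 bp before the start to 22.2 in the 200 bp after it, then fell to 15.2 at 1000 to 1500 bp after it. In those 200 bp beta reached 29.5, gamma 20.2 and alpha 18.8. The midpoint nearest to the start on the gene side lay at a median of 88 bp with a median score of 18.5, against 112 bp and 22.2 at other starts. It scored higher than the nearest upstream midpoint in 36 of 53 genes, including 14 of 16 beta genes, and at 60.3% of other starts, so the share over all members was near the background.

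Within 1500 bp on either side of the start, members had 8 to 18 midpoints. These counts were compared with autosomal windows of the same length and a GC content within 0.5 percentage points. The median ratio was 0.873 in alpha, 1.01 in beta and 0.912 in gamma. Fewer midpoints than the 10th percentile of their GC were found in 8 members, 3 alpha, 2 beta and 3 gamma, while 10.2% of all windows fall there. The extremes were PCDHB7 at 1.40 and PCDHB13 at 0.562. In alpha the ratio ran from 0.668 in PCDHA3 to 1.14 in PCDHA1, and in gamma from 0.730 in PCDHGA1 to 1.22 in PCDHGB3. The mean score of these windows had a median ratio of 0.917, 0.940 and 0.947 in alpha, beta and gamma. It was below the 10th percentile in 10 members (5, 2 and 3), against 10.0% of windows, and above the 90th in 3.

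On the same measure, the mean score of the window around the start relative to GC, all 53 members had a median of 0.933. The 9 non-clustered protocadherins PCDH1, PCDH7, PCDH9, PCDH10, PCDH12, PCDH15, PCDH17, PCDH18 and PCDH20, which are related adhesion proteins encoded elsewhere, had a median of 0.977, from 0.787 to 1.19, and 2 were below the 10th percentile. TAF7 and SLC25A2, which lie between the beta and gamma clusters, had 0.880 and 0.891. The 9 genes chosen because their products act on these clusters or on CTCF and cohesin loops (CTCF, RAD21, SMC3, STAG1, NIPBL, WAPL, SMCHD1, DNMT3B and WIZ) had a median of 0.882, and 2 were low. The median of the members lay between those of the regulators and of the non-clustered protocadherins.

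The window scores differed widely between neighbouring genes. PCDHB1, which is the most diverged beta gene and had no match to the element in the searched window, had the highest ratio of all, 1.22. PCDHB2, which had a match, was close to it at 1.21. The highest gamma value was 1.19 in PCDHGA10 and the highest alpha value 1.16 in PCDHA10. The lowest values were alike in the 3 clusters, with 0.698 in PCDHA1, 0.701 in PCDHB13 and 0.705 in PCDHGA5. High midpoint counts and high scores did not go together in PCDHA1, which had the most midpoints relative to GC in its cluster and the lowest score.

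The variable exons were where the members stood lowest. They were 2470 to 7973 bp long, with a coding part of 2328 to 2565 bp. The longest belonged to PCDHB1, and the beta exons include their noncoding ends. With the coding part alone, the beta score ratio given next was 0.707. Their GC content had a median of 56.7% in alpha, 47.7% in beta and 53.8% in gamma, all above the windows around the starts. At that GC, mean scores of 21.2, 18.2 and 20.6 would be the average of autosomal tiles of 2400 bp, and the members had medians of 16.5, 15.3 and 16.9.

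The mean score of a variable exon was below the GC-matched average in 48 of 53 genes, 14 of 15 alpha, 15 of 16 beta and 19 of 22 gamma. The median ratio was 0.780 in alpha, 0.833 in beta and 0.819 in gamma. In 24 exons, 8 in each cluster, the score was below the 10th percentile of tiles with the same GC, where 10.0% of all tiles fall. None was above the 90th percentile. The 5 exons above the average were those of PCDHAC1, PCDHB1, PCDHGA10, PCDHGC3 and PCDHGC5.

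**Figure D3:**
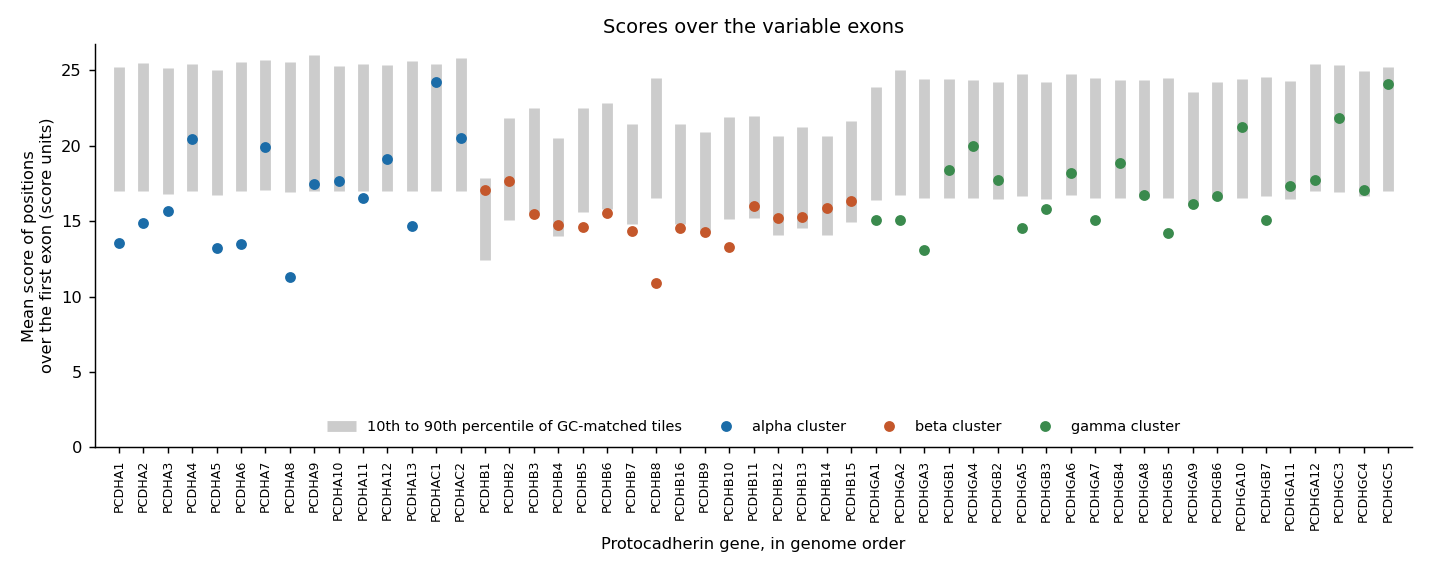
Mean score of the positions over the first exon (y axis, score units) for each of the 53 genes in genome order (x axis), with grey bars from the 10th to the 90th percentile of autosomal tiles of the same GC content. Points below their bar number 24, with 8 in each cluster, and none lies above its bar.

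Single exons show how far this went. PCDHA8 had 12 midpoints over its exon with a mean score of 11.3, where 21.3 is the average for its GC, a ratio of 0.532. PCDHB8 had 7 midpoints with a mean score of 10.9, a ratio of 0.531, and both exons ranked in the lowest 2 percentiles, at 1.11 and 0.674. The lowest gamma exon was that of PCDHGA3, with 13 midpoints, a mean score of 13.1 and a ratio of 0.637. At the ends of the clusters, PCDHA1 had a ratio of 0.643, PCDHB15 of 0.894 and PCDHGA1 of 0.748. Neighbouring exons could differ, since PCDHA7 had a mean score of 19.9 where PCDHA6 before it had 13.5.

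Other protein-coding genes with a long coding exon were a closer comparison. Among 1365 other coding exons with at least 1500 coding bases, 752 had a GC content in the range of the members. Their own median score ratio to tiles was 0.974, and 12.9% were below the 10th percentile. Against those of like GC, the members' median ratio was 0.828 in alpha, 0.844 in beta and 0.865 in gamma, and 20 of 53 were below their 10th percentile (7, 5 and 8).

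The C-type exons were the exception within the alpha and gamma clusters. PCDHAC1 had 15 midpoints with a mean score of 24.3, a ratio of 1.14 and the 82.3rd percentile of its GC. PCDHGC5 had 16 midpoints with a mean score of 24.1, a ratio of 1.14 and the 82.8th percentile. PCDHGC3 had a mean score of 21.9 (ratio 1.03), PCDHAC2 of 20.5 (0.957) and PCDHGC4 of 17.1 (0.819). The median ratio of the 5 was 1.03, from 0.819 to 1.14, and none was below the 10th percentile. The other 32 alpha and gamma exons had a median of 0.795, from 0.532 to 1.04, and 16 were below it. The ranges overlapped, since PCDHGC4 lay among the other exons and PCDHGA10 among the C-type ones. PCDHB1 had 42 midpoints with a mean score of 17.1 and a ratio of 1.13, the highest of the beta cluster.

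These genes were also set apart by sequence. Each C-type exon had at most 58.4% identity to any other exon of its own cluster, whereas the other alpha and gamma exons reached 73.3% to 91.0%. Identity between exons of different clusters was not measured. All 50-base words of the C-type exons occurred once in the genome, and the windows around their starts had a GC content of 48.8% to 54.9%, above the 37.7% to 46.9% of the others. Among the other alpha and gamma exons, the 18 with at least 90% of such words unique had a median score ratio of 0.796, and 9 were low, close to the 0.795 of all 32.

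How many midpoints an exon held went with its uniqueness. Over the 53 exons, the share of unique 50-base words and the midpoint ratio to GC-matched tiles had a Pearson r of 0.722 and a Spearman rho of 0.707, and within beta r was 0.804. These points share 1 pooled list and are related in sequence, so the values are descriptions. The 25 exons with at least 90% unique words had a median midpoint ratio of 1.01, and 1 was below the 10th percentile. The 28 with fewer had a median of 0.851, and 9 were below it. Over all members 10 exons were below it (2 alpha, 6 beta and 2 gamma), against 10.1% of tiles. The exon with the fewest midpoints for its GC, PCDHB8 at 0.477, had 52.9% unique words. In alpha the lowest, PCDHA7 at 0.618, had 69.2%, and the highest, PCDHA11 at 1.12, had 91.1%. In gamma the ratio ran from 0.799 in PCDHGB4 to 1.24 in PCDHGB3, whose words were all unique.

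The score ratio and uniqueness had an r of 0.424 over the 53 exons, 0.399 within alpha, 0.748 within beta and 0.288 within gamma. The Spearman rho within beta was 0.426. Its median was 0.819 in the 25 exons of mostly unique sequence and 0.813 in the other 28, and 10 and 14 of them were low. Only 2 beta exons were among the 25, with a median of 0.961, so for beta this split holds few genes. The part of uniqueness in the scores and in the midpoint counts was not tested.

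**Figure D4:**
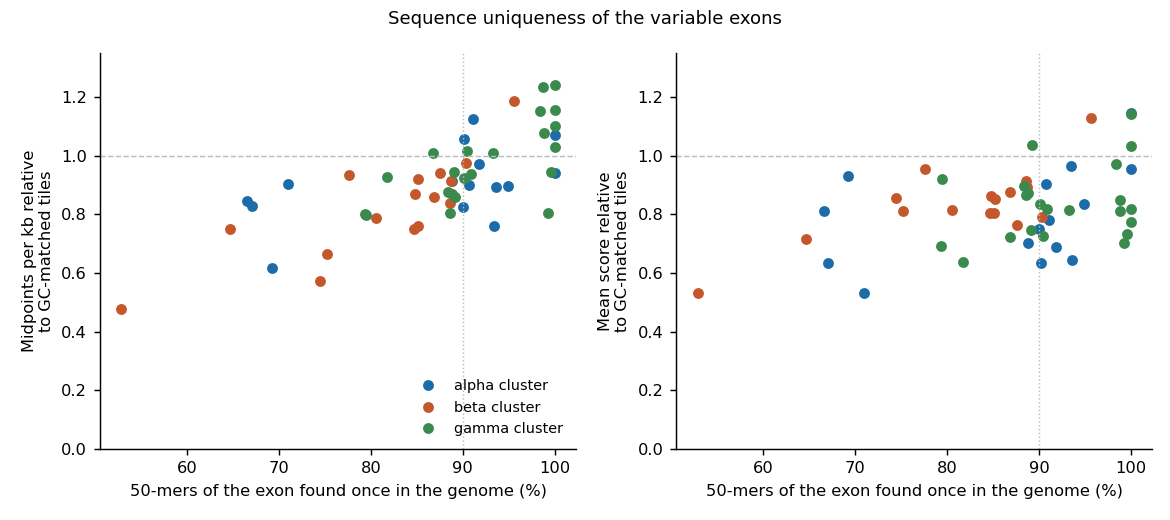
Midpoints per kb (left) and mean score (right) over each variable exon, both relative to autosomal tiles of the same GC content (y axes), against the share of the exon's 50-base words found once in the genome (x axes, %). Each point is 1 of 53 genes, and the dotted line is at 90%. Over all points r is 0.722 on the left and 0.424 on the right, and within beta 0.804 and 0.748.

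The variable exons of alpha and gamma are joined to constant exons, of which the long last ones scored above the average for their GC. The long last constant exon of alpha (chr5:141009627-141012347) had 13 midpoints with a mean score of 16.1, which is 1.10 times the average for its GC. That of gamma (chr5:141510947-141512975) had 11 midpoints with a mean score of 22.9, or 1.08 times. The short constant exons are too short for a comparison with tiles. Those of alpha were each overlapped by 1 position, with scores of 17.3 and 11.1 at a GC content of 62.7% and 59.6%. Those of gamma were overlapped by 1 position with a score of 13.6 at 69.5% GC and by 2 positions with a mean score of 23.4 at 57.3% GC.

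Inside the alpha exons, copies of the CTCF core consensus lay at a fixed place. The 12-base consensus was sought by letter on both strands within each exon and 1500 bp around each start, with at most 1 mismatch outside 4 fixed bases. It was found in the exon of 10 of 15 alpha, 0 of 16 beta and 4 of 22 gamma genes, while 19.2% of other long coding exons held one. In 9 alpha genes, PCDHA4, PCDHA5 and PCDHA7 to PCDHA13, it was on the sense strand 459 to 462 bp after the start codon. The match was exact in PCDHA4, PCDHA7, PCDHA9 and PCDHA13. Some of these 9 are shown in GRCh38 on the plus strand, to let the exact and the 1-mismatch copies be compared, with the matched bases in capitals.
PCDHA4 (capitals at chr5:140807644-140807655): tctcggtttCCACTAGAGGGCgcctcggat
PCDHA9 (capitals at chr5:140848952-140848963): tctcggtttCCACTAGAGGGCgcgtccgat
PCDHA10 (capitals at chr5:140856502-140856513): tctcgatttCCACTAGAAGGCgcatctgat
PCDHA12 (capitals at chr5:140875929-140875940): tctcattttCCTCTAGAGGGCgcttctgat
PCDHA13 (capitals at chr5:140882725-140882736): actcgatttCCACTAGATGGCgcatccgat

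The midpoints near these copies were few in number, and no interval or background of other exons was set beside them. Over the 9 alpha exons, 52 midpoints lay within 700 bp of the match on either side. Of these, 2 were within 50 bp of it, or 0.544 times the density over 700 bp, and 12 were 100 to 200 bp away, or 1.62 times. In PCDHA13 the nearest midpoints were 149 bp before and 131 bp after the match, with scores of 32.1 and 18.5. In PCDHA12 they were 143 and 157 bp away, with scores of 38.2 and 11.1, and in PCDHA10 156 and 154 bp away, with 12.3 and 27.1. In these 3 genes the match was near the middle of the interval, much as the promoter element was in PCDHB4, PCDHB9, PCDHB10 and PCDHB11. PCDHA4 had its nearest midpoints 368 bp before and 162 bp after the match, PCDHA7 304 and 686 bp, and PCDHA9 166 and 664 bp. The exons of PCDHA7 and PCDHA9 had 69.2% and 66.6% unique 50-base words, and the part of this in their wide intervals was not tested. PCDHA5, PCDHA11 and PCDHA8 did not follow the pattern, with a midpoint 2, 34 and 52 bp from the match. Over all 16 matches in the 3 clusters, the density within 50 bp was 0.816 times that over 700 bp on either side. The 4 exact copies alone had 4 midpoints at 100 to 200 bp, 1.33 times the surroundings, and 0 within 50 bp, which is too few to set a width of the interval.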

How the data were processed

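The authors mapped paired-end MNase-seq reads to GRCh38, dropped blacklisted regions and applied the nucMACC workflow. The runs pooled for the deposited list and the scaling of its score are not given in the sources used here, so the reads behind a score are unknown. The deposited score is a signal, never negative, in steps of 1.23. The list was used unfiltered, and a midpoint is the start plus 70 bp.

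Starts and first exons came from canonical transcripts of GENCODE release 44 (the study names release 48). Each window or exon was compared with autosomal tiles of 3001 or 2400 bp with a GC content within 0.5 points. Sequences were read from the GRCh38 genome. The members and gene lists were chosen with earlier results of these data known. Full values are given for the first and last gene of each cluster, the C-type genes and PCDHB1, and the genes at either end of a range. Genes named around the CGCT and CTCF matches were chosen after their values were seen. Matches of CTCF at the promoters, of CGCTG and of CGCT alone had been looked at before the CGCT element was set. Uniqueness was the share of 50-base words found once in the genome on either strand. The alternatives were other scores, widths, tiles, gene subsets and motifs. The scripts ran under Python 3.11.15 with pandas 2.3.3, SciPy 1.17.1, NumPy 2.4.6 and, for plots, matplotlib 3.10.9, and were tested on simulated positions.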

Additional observations from a re-analysis of the deposited data

How the results depend on the processing

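Of 112 alternative values, 92 kept their direction and moved by less than the spread between members, 10 moved further and 10 changed direction. The cause was not tested in any of these. Low scores over the variable exons kept their direction throughout, and the beta value moved to 0.707 with the coding part alone. Midpoint counts depended most on which positions were used. When only positions scoring at least the median were kept, the ratio was 0.631 (alpha) and 0.866 (beta) around the starts and 0.583, 0.587 and 0.772 (alpha, beta, gamma) over the exons, the beta window score was 1.02, and the log2 upstream density of alpha was 0.18. With the 2% of positions that score highest, the median ratios were 0 around the starts in each cluster. They were 0 over the alpha and gamma exons and 0.564 over the beta exons, and the log2 upstream density was 2.32 in gamma and 1.32 over all. So few positions pass this cut of 34.5 that most members hold none, and a median of 0 then says little about the clusters. PCDHB2, for one, held a position scoring 54.3. These values are nevertheless counted among those that moved further or changed direction. Within 1000 bp of the starts beta had 0.972. Gamma exons had 1.03 with unique exons only and 1.14 against other long coding exons. With the upstream flank only, gamma had 0.0893. The band upstream of the CGCT element, tried in 4 ways added after seeing the data, was 1.53 to 1.91 times the flanks. No paired analysis was possible because only pooled positions were given, with no value per library. One pooled list of 1 line gives no error between samples, and 7 to 42 midpoints per exon limit each ratio.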
